A study of Mus musculus with 10 samples.

Results

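The response of splenic type 2 conventional dendritic cells (cDC2) lacking Notch2 to sheep red blood cells (SRBC) was measured by comparing 3 arrays from SRBC-treated Notch2-11cKO mice with 2 arrays from untreated Notch2-11cKO mice. These 5 arrays were chosen by their titles, out of 10 in the series, and each of 19938 genes was read from 1 probe set, the brightest on average across the 10 arrays. Notch2-11cKO mice carry floxed Notch2 alleles and a Cre recombinase driven by the CD11c promoter, so deletion is aimed at CD11c-expressing cells and is not limited to cDC2. Treated mice had been given 200000000 SRBC intraperitoneally 24 hours before analysis. The other 5 arrays, 2 from untreated and 3 from SRBC-treated wild-type (WT) mice handled in the same way, served for comparison. Cells of all groups came from spleens digested with collagenase and DNase, were enriched for CD11c and were then sorted. The labels give neither the age of the mice nor whether replicates came from separate mice, so p-values measure the spread between these arrays, which may be technical.

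cDC2 are antigen-presenting cells that take up blood-borne particles in the spleen, mature, move to the border of the B and T cell zones and prime helper T cells. SRBC are a classical particulate antigen that raises germinal centre responses. Notch2 is a cell-surface receptor whose cleaved intracellular domain acts with the DNA-binding protein RBPJ on target genes such as Hes1 and Dtx1, and splenic cDC2 need it to form the subset marked by ESAM and CD4. The comparison asks which transcripts still change after SRBC in cDC2 that lack this signal.

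Levels are log2 intensities and differences are log2 differences, SRBC minus untreated, ± the standard error (SE) of 1 limma fit over all 10 arrays, on n = 3 and 2. Every adjusted p is limma's, adjusted by Benjamini-Hochberg over the 19938 genes, and a gene is said to have risen or fallen only where it is below 0.05. The number of arrays limits the precision. Array medians lay between log2 4.88 and 4.99, and no detection call was used, so a level below these values was not shown to be above background. In RNA from sorted populations, a change in the proportion of cells expressing a gene cannot be told apart from a change of RNA per cell.

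The Notch2 probe set read 8.37 and 8.17 on the untreated and 7.96, 7.64 and 7.23 on the SRBC Notch2-11cKO arrays, against 8.11 and 8.14, and 7.58, 7.09 and 7.09, in WT. It therefore did not separate the genotypes; the deleted exons are not given in the sources used here, so the probe set does not check the deletion. Notch2 itself did not pass after SRBC (-0.66 ± 0.24, adjusted p = 0.367). Other genes differed between the genotypes: the mean level of 11 ESAM-high cDC2 genes was 5.46 and 5.75 on the untreated Notch2-11cKO arrays and 8.11 and 7.99 on the untreated WT arrays. Of the cDC2 markers, Esam (3.99 and 4.13) and Clec4a4 (3.94 and 3.73) lay below the array medians in untreated Notch2-11cKO cells, whereas Cd209a (10.20 and 10.12) was bright. Itgax (10.45 and 10.51) and the class II gene H2-Ab1 (12.44 and 12.29) were bright too, but are markers of conventional dendritic cells in general. Cd4, also a marker of the Notch2-dependent subset, lay above the array medians in untreated Notch2-11cKO cells, at 6.90 and 7.5, against 8.27 and 8.19 in untreated WT cells. After SRBC it read 6.39, 6.25 and 6.41 in Notch2-11cKO cells (-0.85 ± 0.20, adjusted p = 0.127). After SRBC the third array stood apart: it correlated with the other SRBC arrays at r = 0.947 and 0.936 over 9969 brighter genes, and those correlated at 0.972 with each other. The first WT SRBC array stood apart likewise, at 0.929 and 0.928 against 0.984. Of the 61 genes called below, 36 also passed without the third Notch2-11cKO SRBC array; the other 25 had adjusted p-values between 0.0506 and 0.0936 without it.

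Of the 19938 genes, 61 passed the threshold in Notch2-11cKO cells, 0.306% of those tested; 28 were higher (0.140%) and 33 lower (0.166%) after SRBC. At an unadjusted p below 0.05 there were 1994. In all 61, every SRBC array lay on 1 side of both untreated arrays. For scale, every SRBC array lay above both untreated arrays for 16.1% of all genes and below them for 12.2%. Of the 61, 53 had differences of at least 2-fold, and the smallest was 1.68-fold, in Itga1. Small differences could hardly pass with 3 and 2 arrays, so these sizes follow in part from the threshold. When a change beyond 1.5-fold was asked for, 3 genes passed. The counts of fold include Rnase2a, Itga1, Cxcr5, Cmbl and Mir133a-1, whose values lay below the array medians on every Notch2-11cKO array. The median difference of all genes was 0.03. The number of genes called depended on single arrays, and most of all on the first untreated array, without which only 2 genes passed. It was 13 without the second untreated array, and 11, 26 and 49 without SRBC array 1, 2 or 3. The WT arrays enter through the shared estimate of spread: the number was 27 without either untreated WT array, and 183, 44 and 31 without WT SRBC array 1, 2 or 3. With only the Notch2-11cKO arrays in the fit 23 genes passed, 16 higher and 7 lower, and 16 of them were among the 61; S100a8 (adjusted p = 0.0913), Cd200 (0.0780), Socs2 (0.0780), Id3 (0.0792), Cd209a (0.0648) and Dnajb1 (0.1194) did not pass there. All 61 genes kept their sign in each of the 10 fits with 1 array left out. Hsph1 and Rnase2a were the 2 genes that passed the threshold whichever single array was left out, and H2-K2, Serpinb6b and Trem1 lost the call with 1 array only, the first untreated one.

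**Figure D1:**
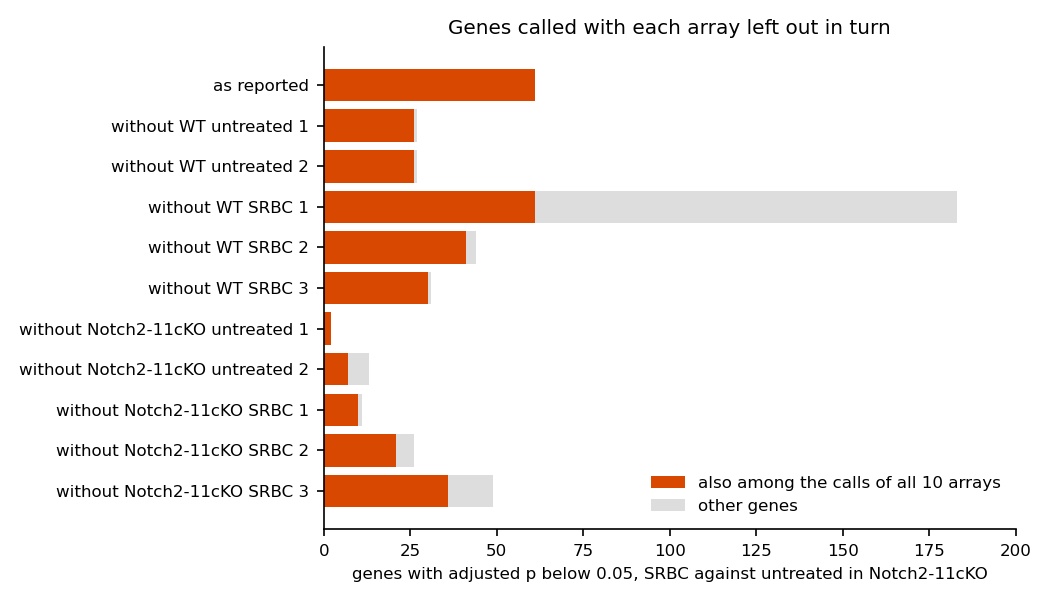
Number of genes with an adjusted p below 0.05 for SRBC against untreated Notch2-11cKO cDC2 (horizontal axis), with all 10 arrays and with each array left out (rows). The orange part of a bar counts genes also called with all 10 arrays; the bar shrinks from 61 to 2 without the first untreated Notch2-11cKO array and grows to 183 without the first WT SRBC array.

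Genes of dendritic cell maturation and costimulation had the highest median of the functional lists. The lists were chosen with earlier results of these data known, so this rank and the counts below are a description only. Of 27 measured members of this list, 4 rose, none fell and 23 did not pass. The median difference was 0.79, against 0.03 for all genes. Every SRBC array lay above both untreated arrays for 18 members and below them for 2, against 16.1% and 12.2% of all genes. Serpinb6b, an intracellular serine protease inhibitor, read 5.70 and 5.97 without treatment and 8.07, 8.58 and 8.58 after SRBC. All 3 SRBC arrays lay well above the untreated pair, and the difference was 2.58 ± 0.24 (5.97-fold, adjusted p = 0.0018). Socs2, a feedback inhibitor of cytokine receptor signalling, read 5.09 and 6.40, and then 8.11, 8.49 and 7.97. Its untreated arrays differed from each other by more than its SRBC arrays did, and the rise of 2.45 ± 0.41 (adjusted p = 0.0386) became 1.79 without the first and 3.10 without the second untreated array; it missed the threshold without the third SRBC array (adjusted p = 0.0544). Cd200, the ligand of an inhibitory receptor on myeloid cells, read 5.24 and 5.71, and then 7.71, 7.17 and 8.32, a rise of 2.26 ± 0.35 (adjusted p = 0.0276). Ly75, the endocytic receptor DEC-205, read 5.19 and 5.53, and then 7.16, 7.37 and 7.91, a rise of 2.11 ± 0.34 (adjusted p = 0.0339; 0.0586 without the third SRBC array). Neither Cd200 nor Ly75 showed any overlap between the groups.

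Several well-known activation genes of the same list did not pass the threshold. Of those named here, only Cd83 had overlapping arrays. Ccr7, the receptor that guides mature dendritic cells to the T cell zone, read 9.76 on both untreated arrays and 11.17, 10.65 and 10.89 after SRBC (1.14 ± 0.24, adjusted p = 0.0895). For Cd80, a ligand of CD28, the untreated values were 8.91 and 9.01 and the SRBC values 9.87, 9.53 and 9.84 (0.79 ± 0.17, adjusted p = 0.0983). Tnfrsf4, which encodes OX40, had a difference of 1.28 ± 0.24 (adjusted p = 0.0599), and Fscn1, the actin-bundling protein of mature dendritic cells, one of 1.46 ± 0.28 (adjusted p = 0.0622). Cd86 (0.70) and Cd40 (0.88) had adjusted p-values of 0.397 and 0.427. Cd40 read 7.52 and 7.80, and then 8.13, 8.05 and 9.45, so that most of its difference lay in the third SRBC array; without that array it was 0.43. The maturation marker Cd83 read 11.49 and 11.11, and then 11.64, 10.60 and 10.52, and its groups overlapped.

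**Figure D2:**
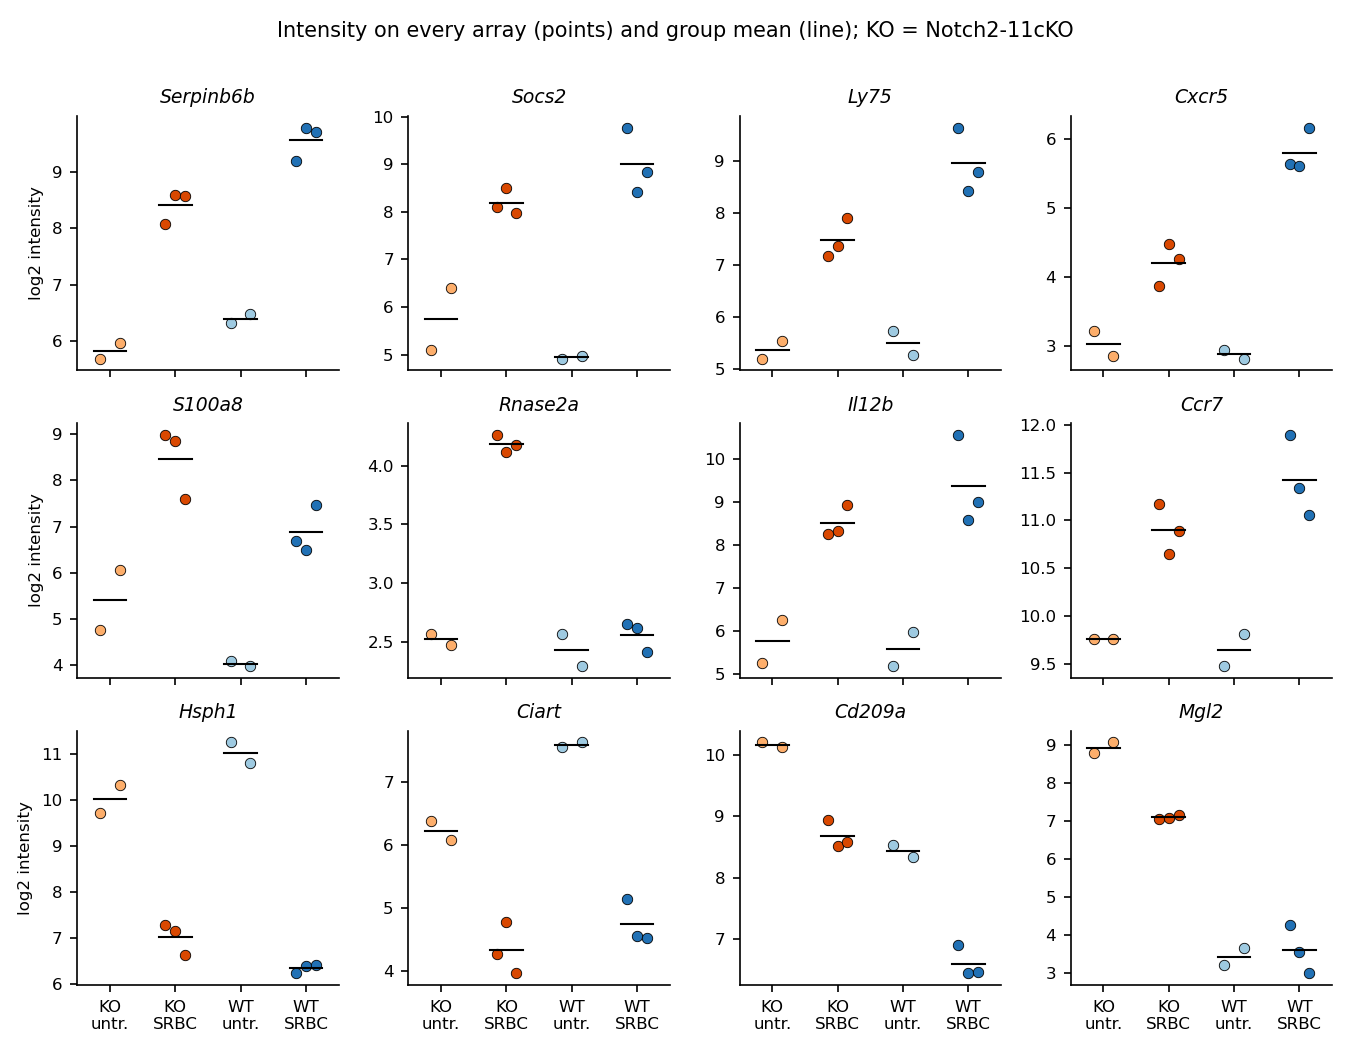
Log2 intensity (vertical axes, scaled per gene) of 12 genes on every array (points) with the group mean (line), in the 4 groups along the horizontal axis; KO stands for Notch2-11cKO and untr. for untreated. Serpinb6b, Socs2, Ly75 and Cxcr5 are higher after SRBC in both genotypes, Hsph1, Ciart and Cd209a are lower in both, and Rnase2a and Mgl2 differ between treatments in Notch2-11cKO cells with WT values between 2.30 and 2.65 and between 2.98 and 4.26.

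No gene of 24 interleukins and TNF family cytokines passed the threshold, and the median difference of that list was 0.25. Its 2 smallest p-values belonged to Il12b and Il6. Il12b, which encodes the p40 subunit of IL-12 and IL-23, read 5.26 and 6.27, and then 8.26, 8.34 and 8.94; the difference of 2.75 ± 0.52 missed the threshold (adjusted p = 0.0585). Il6 read 5.85 and 6.43, and then 8.00, 7.96 and 9.67, with a difference of 2.40 ± 0.46 (adjusted p = 0.0614). Without the third SRBC array the Il6 difference was smaller, 1.84 ± 0.28, and passed (adjusted p = 0.0389). Il1a read 4.38 and 5.62, and then 7.44, 6.81 and 10.02, with the third SRBC array far above the others (3.09 ± 0.92, adjusted p = 0.23). For these 3 cytokines every SRBC array lay above both untreated arrays. Tnf went the other way, at 10.49 and 10.27, and then 9.41, 9.28 and 10.09 (-0.78 ± 0.28, adjusted p = 0.35). In the whole list every SRBC array lay above both untreated arrays for 8 members and below them for 1.

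Among 29 cytokine receptors 1 rose. Il2ra, the alpha chain of the IL-2 receptor (CD25), read 5.13 and 5.46, and then 7.10, 7.17 and 7.33. The 3 SRBC values were close together, and the rise was 1.91 ± 0.33 (adjusted p = 0.0416; 0.0829 without the third SRBC array). Il7r, the IL-7 receptor chain, read 8.46 and 8.60, and then 9.30, 9.60 and 9.74, just outside the threshold (1.02 ± 0.18, adjusted p = 0.0501). Of 24 chemoattractant receptors 1 also rose: Cxcr5, the receptor for the B cell follicle chemokine CXCL13. Its values were 3.21 and 2.85, and then 3.87, 4.47 and 4.26, all below the array medians. The rise was 1.17 ± 0.21 (adjusted p = 0.0483; 0.0936 without the third SRBC array). Gpr183 (EBI2), a receptor for oxysterols that guides cDC2 within the spleen, did not pass (0.48 ± 0.18, adjusted p = 0.373).

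Chemokines showed both directions. Of 20 measured, none rose and 1 fell, with a median difference of 0.51. All SRBC arrays lay above the untreated pair for 9 members and below it for 2. Ccl3, an inflammatory chemokine, was among the brightest transcripts and read 12.05 and 11.95, and then 11.03, 10.56 and 11.00, a fall by 1.14 on the log2 scale (SE 0.19, adjusted p = 0.0386). Ccl17, a ligand of CCR4, read 6.96 and 8.29, and then 9.68, 9.78 and 9.0, a difference of 1.86 ± 0.34 that did not pass (adjusted p = 0.0567). Ccl7 had a difference of 2.08 ± 0.44 (adjusted p = 0.0863).

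S100a8, a subunit of the calcium-binding protein calprotectin, read 4.75 and 6.07, and then 8.98, 8.85 and 7.59. This was the largest rise called, 3.07 ± 0.46 (8.37-fold, adjusted p = 0.0263), and it was 2.41 without the first untreated array and 3.51 without the third SRBC array. S100a8 was the 1 member of 13 neutrophil markers that passed. The summed intensity of these 13 markers was 301 to 515 on the untreated and 550 to 1201 on the SRBC arrays. Its partner S100a9 read 4.73 and 7.46, and then 8.79, 8.26 and 6.88, with overlapping groups. Of the 13, 4 (S100a8, Ngp, Ltf and Retnlg) had every SRBC array above both untreated arrays and 1 (Csf3r) had every one below. The granule gene Ngp read 4.23 and 4.34, and then 4.96, 4.78 and 5.25 (0.71, adjusted p = 0.38). The defining neutrophil gene Ly6g lay between 2.62 and 3.00 on all 5 arrays, and the granule genes Camp, Ltf, Elane and Mpo between 3.66 and 5.0. The part of these markers in the rise of S100a8 was not tested.

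Trem1, an activating receptor of myeloid cells, read 3.66 and 4.16, and then 5.82, 5.69 and 5.63. Its SRBC values crossed the array medians, and it rose by 1.80 ± 0.20 (adjusted p = 0.0095). Clu, the secreted chaperone clusterin, read 5.94 and 6.05, and then 8.01, 7.36 and 8.17, a rise of 1.85 ± 0.32 (adjusted p = 0.0456; 0.0857 without the third SRBC array). Rnase2a, of the eosinophil-associated ribonuclease family, had the smallest p of all genes. It read 2.57 and 2.48, and then 4.26, 4.11 and 4.17, with little spread within either group and all 5 values below the array medians. The difference was 1.66 ± 0.12 (adjusted p = 0.000369), between levels not shown to be above background, so no fold is given. That family holds near-identical copies, and the probe set may read more than 1 of them. Alox5, the lipoxygenase that starts leukotriene synthesis, rose by 1.10 ± 0.19 (adjusted p = 0.041), from 5.10 and 4.68 to 6.11, 6.06 and 5.80.

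Idi1, an isomerase of the isoprenoid and cholesterol pathway, read 6.17 and 6.01, and then 7.67, 7.90 and 7.47, a rise of 1.59 ± 0.21 (adjusted p = 0.0188). It was the 1 of 19 cholesterol synthesis genes that passed, and the list's median was 0.02. Crem, a cAMP-responsive transcription factor, rose by 1.73 ± 0.31 (adjusted p = 0.0456; 0.0857 without the third SRBC array), and Prnp, the prion protein, by 2.02 ± 0.26 (adjusted p = 0.0186). Prnp read 4.84 and 5.18, and then 6.67, 7.42 and 6.99. Gria3, a glutamate receptor subunit, rose by 1.86 ± 0.24 (adjusted p = 0.0186), with SRBC values of 6.38, 6.42 and 6.63 over 4.65 and 4.57. The actin cross-linker Actn1 rose by 1.64 ± 0.23 (adjusted p = 0.019), and the Polycomb group gene Pcgf5 by 1.53 ± 0.23 (adjusted p = 0.0263). Itga1, the collagen-binding alpha 1 integrin, was the 1 of 24 integrin and adhesion genes that passed, with a rise of 0.75 ± 0.11 (adjusted p = 0.0263). It read 3.58 and 3.49, and then 4.34, 4.32 and 4.20, all below the array medians and not shown to be above background.

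The remaining rises lay between 0.82 and 2.06. They were the predicted gene Gm5486, Nostrin, the mitochondrial nucleotide carrier Slc25a33, the membrane-bending protein Fnbp1l, the polysialyltransferase St8sia4, the NEDD8-activating subunit Nae1, the JAK-STAT phosphatase Ptpn2, Cmbl, Zscan30 and Sgcb. Of these, Gm5486, Fnbp1l, St8sia4, Nae1, Cmbl and Sgcb did not pass without the third SRBC array (adjusted p between 0.0506 and 0.0725). Cmbl (3.19 to 4.35) lay below the array medians on all 5 arrays, and Zscan30 (3.85 to 4.93) below or within their range. These 10 genes are outside the naming rule and were listed after their values were seen.

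**Figure D3:**
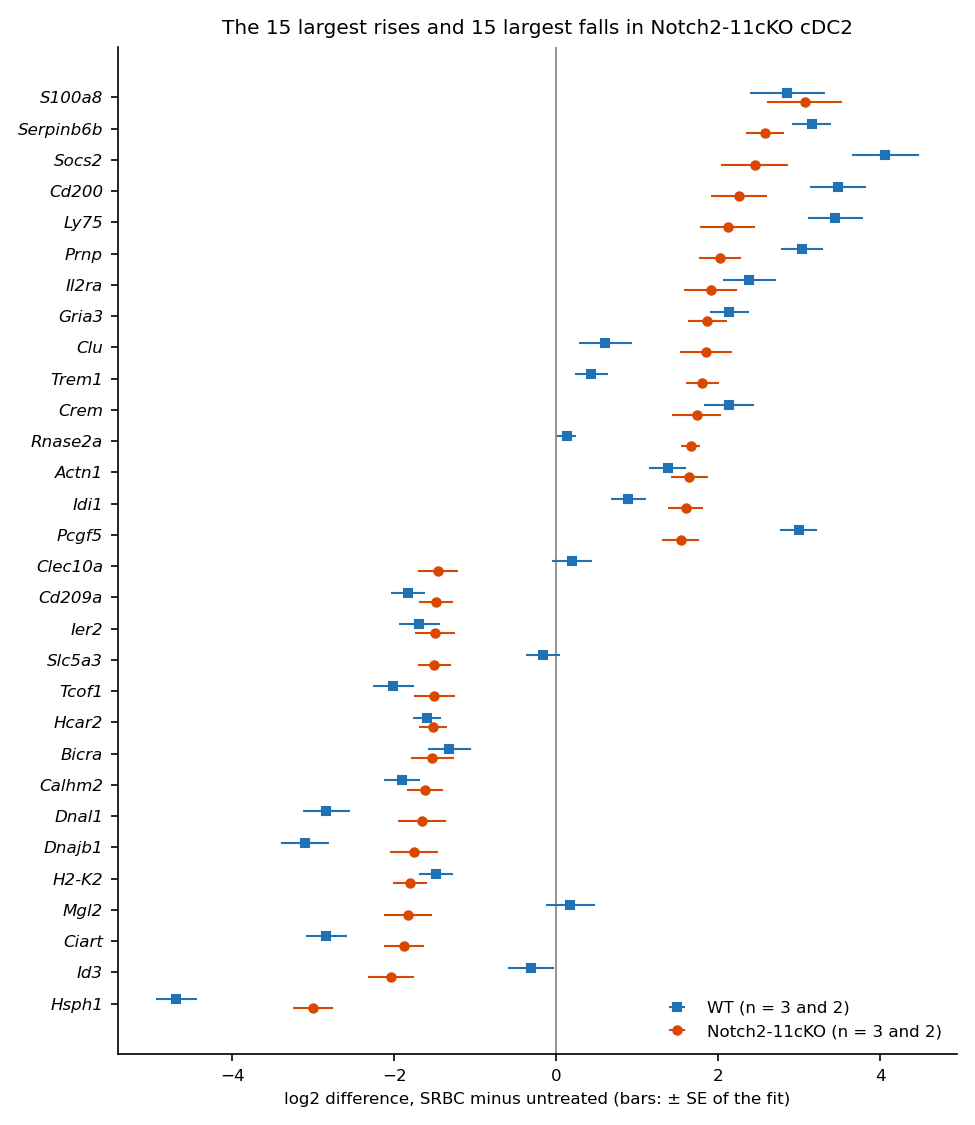
Difference after SRBC (horizontal axis, log2, SRBC minus untreated; bars are ± the SE of the fit) for the 15 largest rises and 15 largest falls called in Notch2-11cKO cells (circles), with the same difference in WT cells (squares). The genes were chosen on the Notch2-11cKO values; Clu, Trem1, Rnase2a, Clec10a, Slc5a3, Mgl2 and Id3 have WT differences between -0.31 and 0.60.

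The largest fall was in a heat shock gene. Hsph1, the HSP110 nucleotide exchange factor of the HSP70 chaperone, read 9.72 and 10.32 in untreated Notch2-11cKO cells and 7.27, 7.14 and 6.63 after SRBC. The groups lay far apart, and it fell by 3.01 on the log2 scale (SE 0.25, 8.03-fold, adjusted p = 0.000945). Dnajb1, the HSP40 cochaperone, read 8.00 and 8.93, and then 6.95, 6.80 and 6.37, and fell by 1.76 (SE 0.30, adjusted p = 0.0386; 0.0754 without the third SRBC array). These were the 2 of 21 heat shock chaperones that passed, none rose, and the median difference was -0.34. Every SRBC array lay below both untreated arrays for 10 members and above them for 1. Hspa1a, an inducible HSP70, read 10.89 and 11.12, and then 9.58, 9.76 and 7.39. Because the third SRBC array was much lower than the other two, its difference of -2.10 ± 0.54 did not pass (adjusted p = 0.159); without that array it was -1.34 ± 0.21 and passed (adjusted p = 0.0389). Hsp90aa1 (-0.66 ± 0.14, adjusted p = 0.0834) and Bag3 (-1.17 ± 0.25, adjusted p = 0.0953) did not pass.

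Immediate-early genes, which answer within minutes to growth factors and cell stress, had a median difference of -0.47. Of 30 measured, 2 fell and none rose. Every SRBC array lay below both untreated arrays for 18 members and above them for 4, against 12.2% and 16.1% of all genes. Ier2 read 8.91 and 9.11, and then 7.77, 7.32 and 7.43, and fell by 1.5 (SE 0.25, adjusted p = 0.0385; 0.0701 without the third SRBC array). Zfp36, which encodes the mRNA decay factor tristetraprolin, fell by 0.96 (SE 0.17, adjusted p = 0.0462; 0.0829 without the third SRBC array), from 12.12 and 11.70 to 11.04, 10.85 and 10.94. Fos (10.50 and 10.17, then 9.45, 8.96 and 7.67) and Egr1 (10.21 and 10.32, then 9.26, 9.17 and 7.60) were lowest on the third SRBC array and did not pass (adjusted p = 0.304 and 0.187).

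Ciart, a repressor within the circadian clock, read 6.37 and 6.07, and then 4.27, 4.78 and 3.97, and fell by 1.89 (SE 0.25, adjusted p = 0.0186). It was the 1 of 17 clock genes that passed, and the list's median was -0.07. Nr1d1, another clock repressor, read 6.42 and 5.99, and then 5.42, 5.74 and 4.97 (-0.83 ± 0.27, adjusted p = 0.29). Per1 differed by -1.16 ± 0.42 (adjusted p = 0.357). Rora went the other way, at 5.71 and 6.03, and then 6.27, 6.64 and 6.80 (0.70 ± 0.21, adjusted p = 0.244). In the list every SRBC array lay above both untreated arrays for 3 members and below them for 5.

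The promoters of Hsph1 and Ciart are shown because each holds letters of the element by which its class of genes is known to be driven. The sequences are RefSeq's on GRCm38.p6, the 250 bases before the annotated start, on the minus strand, read 5′ to 3′. Hsph1 lies at chr5:149636316-149636565, and capitals mark the heat shock element searched for (TTCNNGAA or GAANNTTC, each its own reverse complement). Ciart lies at chr3:95882229-95882478, and capitals mark the E-box CACGTG, to which clock activators bind.
Hsph1: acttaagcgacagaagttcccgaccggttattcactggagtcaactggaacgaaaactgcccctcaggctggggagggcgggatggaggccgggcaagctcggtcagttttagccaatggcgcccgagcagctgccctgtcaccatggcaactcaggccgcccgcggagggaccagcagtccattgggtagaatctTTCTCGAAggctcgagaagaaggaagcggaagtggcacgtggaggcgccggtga
Ciart: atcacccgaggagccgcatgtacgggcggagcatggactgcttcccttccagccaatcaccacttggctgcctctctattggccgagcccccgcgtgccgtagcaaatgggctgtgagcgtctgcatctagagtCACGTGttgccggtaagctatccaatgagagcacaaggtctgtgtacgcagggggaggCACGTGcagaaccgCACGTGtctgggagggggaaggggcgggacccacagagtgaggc
In Hsph1 the match begins 54 bases before this start, and in Ciart the 3 matches begin 116, 58 and 44 bases before it. The heat shock element occurred in 12.8% of all 32851 RefSeq promoter windows of this length, in 3 of 22 windows of genes that rose and in 4 of 26 of genes that fell. Those 4 windows belonged to 3 genes, Cd209a, Hsph1 and Prr5l, as Hsph1 has 2 overlapping windows that hold the same match. Dnajb1, the other heat shock gene that fell, was not among the genes with a match. Not every gene had a window, and whether Dnajb1 was searched is not given here. The E-box occurred in 6.02% of all windows, in 1 of 22 and in 2 of 26, 1 of these being the Hsph1 window above, where it is left in lower case. The cAMP response element TGACGTCA, also its own reverse complement, occurred in 1.55% of all windows and in none of either set. The windows matched 20 of the 28 genes that rose and 21 of the 33 that fell, and some genes have several windows. A match is a description of the letters only.

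A further group of falls was in genes of the monocyte-like, ESAM-low type of cDC2, whose mean level before treatment was 9.79 and 9.69 in Notch2-11cKO against 5.86 and 6.17 in WT cells. Of 15 measured genes of this type 3 fell and none rose, and the median difference was -0.25. Every SRBC array lay below both untreated arrays for 7 of them and above for 1. All 3 that fell are C-type lectins. Mgl2, which binds galactose-type glycans, read 8.80 and 9.08, and then 7.06, 7.09 and 7.17; the 3 SRBC values were nearly equal and lay far below the untreated pair. It fell by 1.84 (SE 0.30, adjusted p = 0.0339; 0.0544 without the third SRBC array). Clec10a, its close relative, read 8.63 and 8.56, and then 7.38, 6.59 and 7.44, and fell by 1.46 (SE 0.25, adjusted p = 0.041). Mgl2 and Clec10a are related in sequence, and how far their probe sets read each other was not tested. Cd209a, a DC-SIGN homologue, read 10.20 and 10.12, and then 8.94, 8.51 and 8.58, and fell by 1.49 (SE 0.21, adjusted p = 0.019).

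Other genes of this type did not pass. Ccr2, the receptor for CCL2, read 10.72 and 10.60, and then 10.06, 9.84 and 9.32 (-0.92 ± 0.32, adjusted p = 0.35), and Cx3cr1 read 9.77 and 9.13, and then 8.68, 9.47 and 7.56 (adjusted p = 0.546). Cd14, a coreceptor for lipopolysaccharide, went the other way: 8.14 and 9.02, and then 10.54, 10.60 and 11.91 (2.43 ± 0.60, adjusted p = 0.138). Among 12 monocyte markers none passed, and their summed intensity was 11740 to 13162 on the untreated and 8997 to 11026 on the SRBC arrays. The 8 cDC2 markers, of which Cd209a fell, summed to 3747 to 3858 and 2341 to 2902. The part of these marker levels in the falls of the lectins was not tested.

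Of transcription factors, Id3, an inhibitor of E proteins, fell most. It read 7.77 and 8.14, and then 5.56, 6.55 and 5.63, a fall by 2.04 (SE 0.28, adjusted p = 0.0188). Lyl1, a basic helix-loop-helix factor, read 8.00 and 7.73, and then 6.60, 6.62 and 6.28, and fell by 1.37 (SE 0.20, adjusted p = 0.0233). None of 22 dendritic cell identity genes passed. Zbtb46, a transcription factor of conventional dendritic cells, had a difference of 0.72 ± 0.20 (adjusted p = 0.185), and Irf4 and Irf8, which guide cDC2 and cDC1 respectively, had differences of 0.17 ± 0.36 and 0.18 ± 0.33.

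Further falls were spread over unrelated functions. H2-K2, a class I gene of a family with near-identical copies, read 8.11 and 7.74, and then 6.16, 6.07 and 6.14, and fell by 1.80 (SE 0.21, adjusted p = 0.0099); its identity among class I copies is uncertain. None of 14 class I presentation genes passed, with a median of 0.03. Hcar2, the receptor for niacin and beta-hydroxybutyrate, read 7.56 and 7.47, and then 6.01, 6.17 and 5.79, and fell by 1.53 (SE 0.17, adjusted p = 0.0097). Slc5a3, a myo-inositol transporter, read 7.32 and 7.20, and then 5.97, 5.51 and 5.77, and fell by 1.51 (SE 0.21, adjusted p = 0.0188). Calhm2, of a channel family, read 6.90 and 6.65, and then 5.39, 5.39 and 4.66, and fell by 1.62 (SE 0.22, adjusted p = 0.0188). Dnal1, Bicra and Tcof1 fell by 1.66, 1.53 and 1.51 (adjusted p = 0.0462, 0.0435 and 0.0385; Dnal1 had 0.0701 without the third SRBC array).

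The other falls lay between 0.81 and 2.60 and were listed after their values were seen. They were Arhgap39, the translation factor Eif4e3, Sh2d3c, Zfp385a, Sowahc, Lbh, the mTORC2-associated Prr5l, the sulfotransferase Chst2, Afmid, Hr, Tspan32, the mitochondrial deubiquitinase Usp30, the small nucleolar RNAs Snord37 and Snora75, and Mir133a-1. Of these, Arhgap39, Eif4e3, Lbh, Prr5l, Afmid, Hr, Tspan32 and Usp30 did not pass without the third SRBC array (adjusted p between 0.0523 and 0.0840). Snord37 read 6.48 and 5.53, and then 2.37, 3.95 and 3.91, and spread widely in both groups. Mir133a-1 lay below the array medians on every Notch2-11cKO array (4.30 and 4.21, and then 3.31, 3.39 and 3.62).

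**Figure D4:**
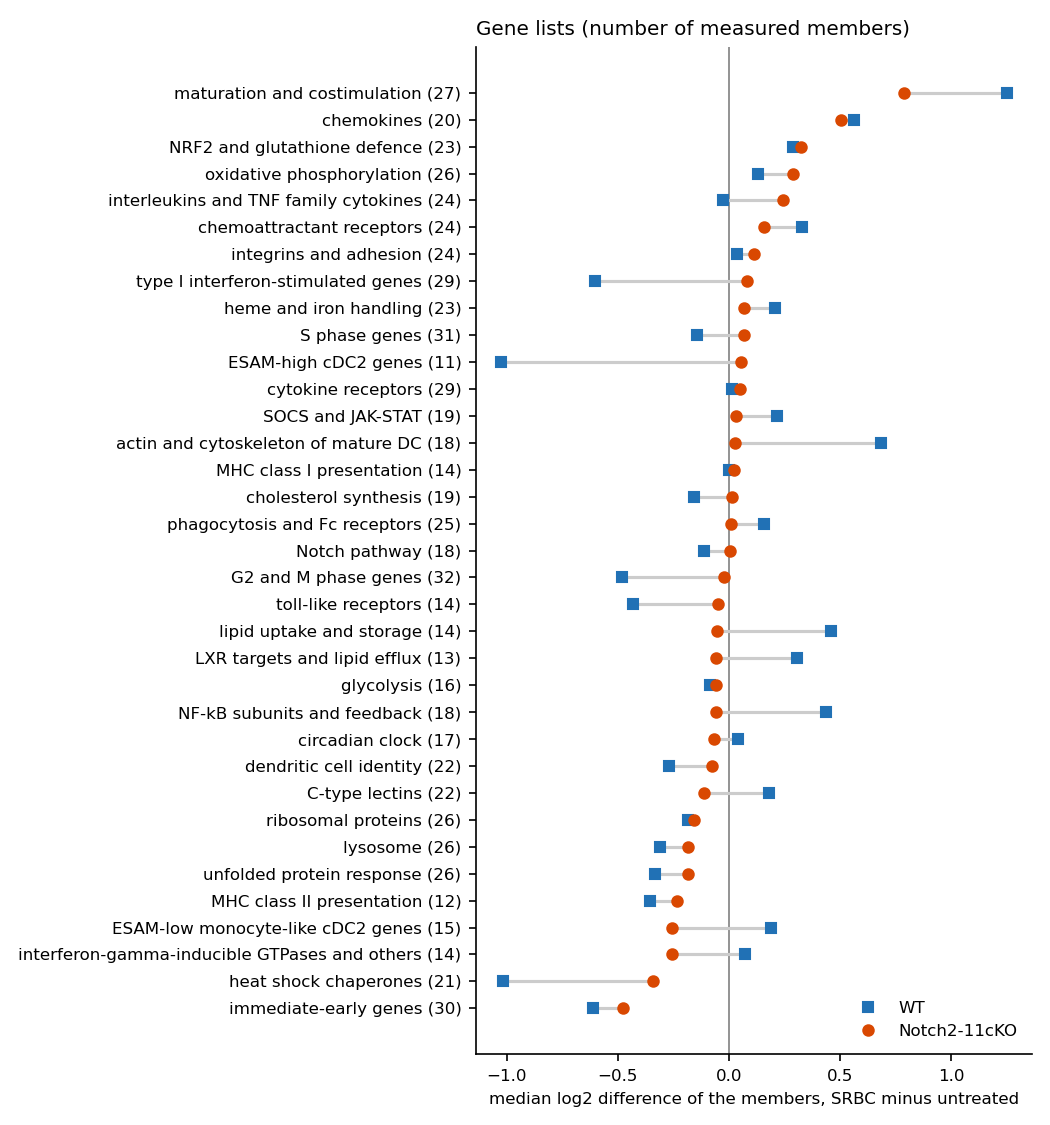
Median log2 difference after SRBC (horizontal axis) of the measured members of 35 gene lists (rows, number of members in brackets) in Notch2-11cKO (circles) and WT cells (squares). Maturation and costimulation genes have the highest Notch2-11cKO median, 0.79, and immediate-early genes the lowest, -0.47. The lists were chosen with earlier results of these data known, and no test was made of them.

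Of 49 lists of pathways and cell type markers, 35 held no gene that passed in Notch2-11cKO cells. Class II presentation was among them: of 12 genes none passed, the median was -0.23 and 4 had every SRBC array below both untreated arrays. Ciita, the class II transactivator, read 8.73 and 8.50, and then 7.81, 7.53 and 6.81 (-1.23 ± 0.37, adjusted p = 0.237). H2-Ab1, one chain of a class II molecule, differed by -0.22 ± 0.15 (adjusted p = 0.681). In 18 Notch pathway genes the median was 0.01 and none passed. Dtx1 read 5.82 and 5.58, and then 5.62, 5.79 and 5.38, and Hes1 read 4.78 and 4.83, and then 4.87, 5.67 and 5.16 (0.42 ± 0.23, adjusted p = 0.604).

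Oxidative phosphorylation (26 genes) had a median of 0.29, with 10 members whose SRBC arrays all lay above the untreated pair and none below; Sdhb, a subunit of succinate dehydrogenase, had a difference of 0.68 ± 0.19 (adjusted p = 0.21). NRF2 and glutathione defence (23 genes) had a median of 0.32, and Txnrd1, a thioredoxin reductase, differed by 1.19 ± 0.37 (adjusted p = 0.253). Ribosomal proteins (26 genes) had a median of -0.15 with 10 members below and 1 above. The 32 G2 and M phase genes (median -0.02) and 31 S phase genes (0.07) were centred near the median of all genes. Among 7 platelet markers none passed, 5 had every SRBC array above both untreated arrays, and Pf4 and Ppbp had differences of 1.39 and 1.41 (adjusted p = 0.0878 and 0.0983); their summed intensity was 236 to 274 and 377 to 456. T cell markers (12 genes) summed to 616 to 662 without treatment and 941 to 1127 after SRBC, with 3 members (Il7r, Cd5 and Cd28) above on every SRBC array and none below. NK cell markers (12 genes) summed to 1075 to 1086 and 1274 to 1436, with 5 members above and 2 below. Erythroid markers (9 genes) summed to 239 to 242 and 255 to 255, with 3 above and none below, and B cell markers (13 genes) to 389 to 453 and 331 to 392, with 2 above and 2 below. None of these 4 lists held a gene that passed, and the part of these marker levels in the results was not tested.

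Type I interferon-stimulated genes set the third SRBC array apart. Their mean level over 29 genes was 6.29 and 6.58 untreated, and 6.35, 6.30 and 7.25 after SRBC. Ifit1, an antiviral RNA-binding protein, read 5.43 and 4.99, and then 5.14, 5.24 and 9.66. On that array Oasl1 was 3.49 above the mean of the other SRBC arrays, Ifih1, a sensor of double-stranded RNA, 2.38 above and the chemokine Cxcl10 2.19 above. Cytokines followed: Il10 read 6.13, 5.25 and 8.89 on the SRBC arrays, and the cytokine list averaged 6.61, 6.52 and 7.35. Immediate-early genes went the other way, with a list mean of 9.03, 8.77 and 8.51, and Nr4a1 2.14 and Atf3 1.93 lower than the mean of the other two, at 8.57 and 9.50. Maturation genes were high on every SRBC array, at 8.33, 8.18 and 8.64 over 7.45 and 7.59. No interferon-stimulated gene passed between treated and untreated cells, and the list's median difference was 0.08.

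In WT cells the same contrast called 756 genes, 3.79% of those tested, 363 higher (1.82%) and 393 lower (1.97%). Every SRBC array lay above both untreated WT arrays for 17.8% of all genes and below them for 15.7%. The genotypes share no array in these contrasts. Of the 61 genes called in Notch2-11cKO cells 39 were also called in WT, all in the same direction, 20 up and 19 down; this is 63.9% of the Notch2-11cKO calls and 5.16% of the WT calls. The other 22 (8 up, 14 down) were not called in WT. A call in one genotype alone does not show a difference, and the difference itself passed for 4 genes of 19938 (0.0201%; 1289 at an unadjusted p below 0.05), 1 of them among the 61. Across all genes the responses correlated at a Pearson r of 0.563 and a Spearman rho of 0.412, given as a description since genes are not independent replicates.

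**Figure D5:**
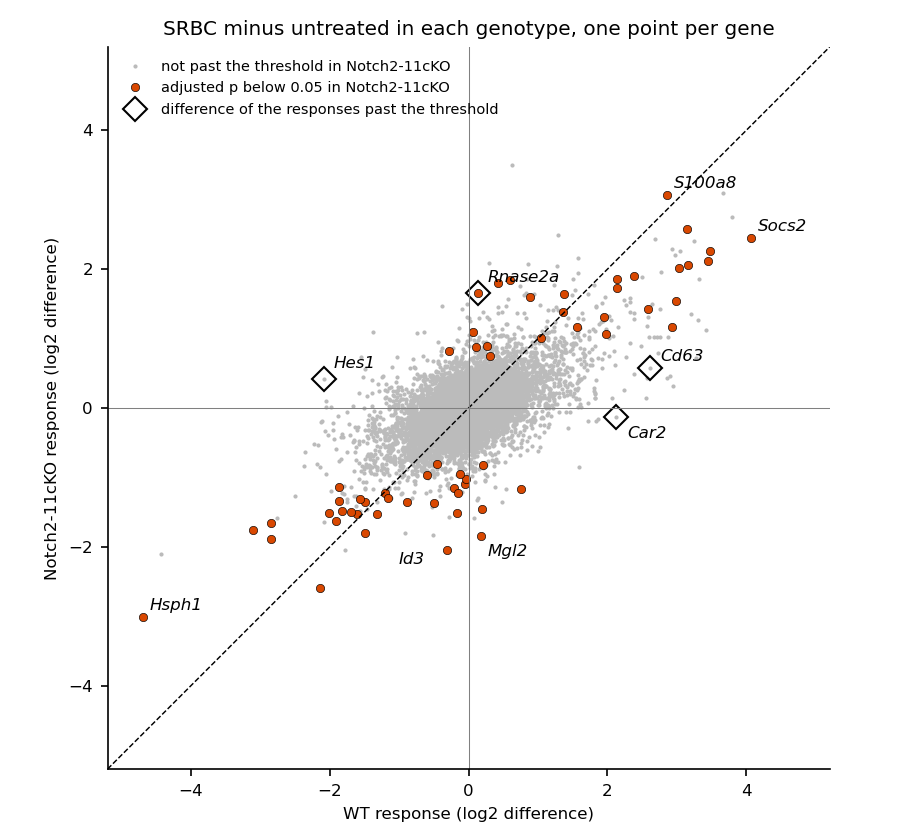
SRBC response of every gene in WT (horizontal axis) and Notch2-11cKO cells (vertical axis), both as log2 differences; filled points are the 61 genes called in Notch2-11cKO cells, diamonds mark the 4 genes whose responses differed past the threshold, and the dashed line marks equal responses. The filled points lie mostly in the upper right and lower left, 56 of 61 having the same sign in both genotypes.

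Sizes could be compared gene by gene. Of the 61 genes, 29 changed more in WT than in Notch2-11cKO cells, and the median ratio of the WT to the Notch2-11cKO difference was 0.98, on genes chosen for their Notch2-11cKO values. Over the 756 genes chosen for their WT values, 684 had the same sign in Notch2-11cKO cells, 731 changed less there and the median ratio of the Notch2-11cKO to the WT difference was 0.388. Both sets were chosen on 1 of the values compared, so these ratios were not tested. Among the 28 rises, Cxcr5 had the largest shortfall against WT: 1.17 ± 0.21 against 2.93 ± 0.21 in WT, a difference of -1.75 ± 0.30 that did not pass (adjusted p = 0.146). Socs2 rose by 4.06, Cd200 by 3.48, Ly75 by 3.44 and Pcgf5 by 2.99 in WT, and none of their differences between genotypes passed (adjusted p between 0.249 and 0.706). Il12b had a difference of 3.80 and Il6 one of 3.24 in WT, both called there, with adjusted p = 0.913 and 0.931 for the comparison of responses. Hsph1 fell by 4.69 in WT, and its difference between responses was 1.69 ± 0.35 (adjusted p = 0.214).

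Mgl2, Clec10a and Id3, which fell in Notch2-11cKO cells, started lower in WT cells. Mgl2 read 3.20 and 3.64 in untreated WT cells and 4.26, 3.55 and 2.98 after SRBC, all below the array medians, and the difference of responses was -2.01 ± 0.42 (adjusted p = 0.214). Clec10a read 3.35 and 3.85 in untreated WT cells and 3.88, 3.66 and 3.83 after SRBC, also all below the array medians. Its difference of responses was -1.65 ± 0.35 (adjusted p = 0.229). Id3 read 5.09 and 5.11, and then 4.53, 4.74 and 5.09 in WT, with a difference of responses of -1.73 ± 0.40 (adjusted p = 0.299). Prr5l fell by 1.16 in Notch2-11cKO cells (adjusted p = 0.0339; 0.0701 without the third SRBC array), had a difference of 0.76 ± 0.19 in WT (adjusted p = 0.0501), and the responses differed by -1.93 ± 0.27 (adjusted p = 0.0617). Cd209a was bright in both genotypes and fell by 1.83 in WT as well, from 8.53 and 8.33 to 6.90, 6.45 and 6.46.

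Some rises also had no call in WT. Trem1 differed by 0.43 in WT (difference of responses 1.37 ± 0.28, adjusted p = 0.214), Clu by 0.60 (1.24 ± 0.46, adjusted p = 0.645) and Alox5 by 0.06 (1.04 ± 0.26, adjusted p = 0.355). S100a8, in contrast, rose in WT as well, by 2.85 ± 0.46 (adjusted p = 0.0066). The fall of Slc5a3 had a WT counterpart of -0.17 (difference of responses -1.34, adjusted p = 0.248). None of these differences of responses passed.

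The 4 genes whose responses differed were Rnase2a, Hes1, Car2 and Cd63. Rnase2a read 2.57 and 2.30, and then 2.65, 2.62 and 2.41 in WT, and the difference of responses was 1.53 ± 0.17 (adjusted p = 0.0104); all 10 of its values lay below the array medians and were not shown to be above background. Hes1, a Notch target, fell in WT by 2.09, from 7.67 and 7.14 to 5.50, 5.29 and 5.17, levels close to those of Notch2-11cKO cells on all 5 arrays; its difference of responses was 2.51 ± 0.33 (adjusted p = 0.0486). Car2, a carbonic anhydrase, read 4.57 and 4.84, and then 4.52, 4.53 and 4.69 in Notch2-11cKO cells, and rose by 2.13 in WT, a difference of -2.26 ± 0.21 (adjusted p = 0.0053). Cd63, a tetraspanin of late endosomes, was bright in untreated Notch2-11cKO cells (11.15 and 10.93) and read 11.53, 11.60 and 11.73 after SRBC; in WT it rose by 2.61, from 8.49 and 8.56 to 11.10, 11.09 and 11.23, and the difference was -2.03 ± 0.20 (adjusted p = 0.0053). All 5 Notch2-11cKO values of Car2 lay below the array medians. So did the untreated and first SRBC values of Hes1 in Notch2-11cKO cells (4.78, 4.83 and 4.87). These levels were not shown to be above background. None of these 4 genes passed without the first WT untreated array. Without the third Notch2-11cKO SRBC array Hes1 did not pass (adjusted p = 0.0538) and the other three did.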

How the data were processed

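Transcripts were measured on Affymetrix Mouse Gene 1.0 ST arrays with RNA labelled by the Ambion WT kit, per the labels' protocols. The deposited values are intensities on a linear scale, 1 per probe set and array, already normalized as deposited, by a method not given in the sources used here. All 28853 probe sets had a value above 0 on each of the 10 arrays; 21789 probe sets listed 1 gene symbol, 1621 several and 5443 none, and 999 of the 19938 genes had several probe sets. Intensities were log2 transformed, and limma 3.58.1 in R 4.3.3 (lmFit, then eBayes with its trend option; residual degrees of freedom 6, prior 5.25) fitted 4 group means and 3 contrasts: the response of each genotype and their difference. Tests were two-sided, with a threshold of 0.05. On simulated data the fit recovered 59% of genes changed by log2 1 and 94% of those changed by log2 2 in the Notch2-11cKO response. In the difference it recovered 27% and 81%, counting calls of either sign. Unchanged genes made up 4.38% and 4.42% of calls. The simulated noise was normal and independent between genes and arrays, with 1 standard deviation per gene. No simulated array stood apart as 2 of the real ones did, so these shares may not hold for the real arrays.

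The 49 lists (982 entries, 897 measured) and the genes were chosen with earlier results of these data known. Named were the 15 largest rises and 15 largest falls past the threshold without overlap of arrays, the members of lowest p, at most 4, of each list described, up to 8 differences each way and 26 fixed genes; predicted genes and small RNAs were left out of the largest changes. Promoter sequences are RefSeq's. Alternatives were other probe set rules, a filter, scalings, variance models, array weights, a replicate block, a minimum fold and leaving out arrays. Tables and plots were made with pandas 2.3.3, NumPy 2.4.6 and matplotlib 3.10.9 under Python 3.11.15.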

Additional observations from a re-analysis of the deposited data

Results flagged for a closer look

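The SRBC responses of the 2 genotypes differed by a test of the difference itself in 4 genes. Rnase2a was called higher in Notch2-11cKO cells and not in WT cells, with a difference of responses of 1.53; all 10 of its values lay below the array medians and were not shown to be above background. Hes1 fell in WT cells and had no called change in Notch2-11cKO cells, with a difference of 2.51. Car2 and Cd63 rose in WT cells and had no called change in Notch2-11cKO cells, with differences of -2.26 and -2.03. Every Notch2-11cKO value of Car2 and the untreated Notch2-11cKO values of Hes1 also lay below the array medians. For Cd63 the untreated level was already 11.15 and 10.93 in Notch2-11cKO cells, near its level after SRBC in WT cells; for Hes1 the untreated Notch2-11cKO level, 4.78 and 4.83, was near the WT level after SRBC. With groups of 2 and 3 arrays no test for single outlying arrays was made.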

How the results depend on the processing

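The Notch2-11cKO response called 61 genes as reported. It called 37 probe sets when each was tested by ID, 103 genes without the mean-variance trend (58 of the 61 among them), 267 with array weights (all 61 among them), 23 with only the groups compared in the fit (16 of them among the 61) and 3 when a change beyond 1.5-fold was asked for. With one array left out it called 2 to 183 (2 without Notch2-11cKO untreated 1, 183 without WT SRBC 1). With another probe set rule, a filter, other scalings, a pseudocount of 16 or a robust variance model it called 58 to 76; median centring gave 22 higher of 60, against 28 higher of 61. Leaving out both arrays that stood apart, chosen after seeing the data, called 398 with all 61 among them, and then Il12b (2.53), Il6 (1.84), Ccr7 (1.15), Cd80 (0.74) and Hspa1a (-1.34) passed. The WT response, 756 genes, became 1886 with weights, 92 beyond 1.5-fold, 2300 without both arrays and 101 to 1331 with one left out. The difference, 4 genes, became 2 among genes above the median level, 7 without the trend, 63 with weights and 604 without both arrays. In limma it was 0 beyond 1.5-fold and 0 to 44 with one array left out, 0 being without WT untreated 1, against 1289 at an unadjusted p below 0.05 as reported. With the replicate number as a block the Notch2-11cKO response called 50 genes, 38 of them among the 61, the WT response 715 and the difference 6. Between treatments, the deviations of same-numbered Notch2-11cKO arrays correlated at 0.097 and -0.066, and of WT arrays at 0.129 and 0.104. Between genotypes, those of SRBC arrays 1, 2 and 3 correlated at 0.479, -0.218 and 0.403. Those of untreated arrays correlated at 0.114, which is 1 value, as deviations of 2 arrays from their mean mirror each other. Of differently numbered SRBC arrays, Notch2-11cKO 3 and WT 2 correlated at 0.409, and the other pairs at -0.507 to 0.234. Since not every pair was over 0.1, the numbers were not taken as pairs. Alternatives were counted for the genes named as largest changes, as differences of responses or as fixed genes. Of these alternatives, 974 kept the sign and the side of the threshold, 215 lost the call and 25 gained it. Another 13 changed sign with no call in either fit, and 0 changed sign with a call in either. Levels below the array medians, as of Rnase2a and Cxcr5, limit what signal over background can show.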
